A study of Homo sapiens with 8 samples.

Results

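The 3 peroxisome proliferator-activated receptor (PPAR) genes and 6 genes of fatty acid use were followed in SKOV3 cells, a human line established from ovarian cancer, with and without added low-density lipoprotein (LDL). The genes were taken by name: the receptors PPARA, PPARD and PPARG, the PPAR target genes ANGPTL4 and PDK4, and CPT1A, CPT2, ACADVL and HADHA, which encode enzymes that carry and burn fatty acids in mitochondria. All 9 were found among the 22554 features of the deposited tables, and all 9 passed the filter on low counts that left 15432 features for testing. Messenger RNA had been sequenced from 4 LDL samples, which received 50 µg/mL LDL over 48 h, and from 4 control samples, which received none. Both groups grew in McCoy's 5A medium with fetal bovine serum and antibiotics, so the controls were not free of serum. Whether the samples within a group were separate cultures is not stated in the labels, so p-values reflect only how these samples varied, and that variation may be technical.

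PPARs are nuclear receptors that bind fatty acids and their derivatives, pair with a retinoid X receptor (RXR) and switch on genes for lipid uptake, storage and oxidation. LDL brings cholesteryl esters, triglycerides and phospholipids into cells, and the fatty acids released from them in lysosomes are among the molecules that can act as PPAR ligands. Long-chain fatty acids enter mitochondria as carnitine esters and are then shortened by repeated rounds of beta-oxidation.

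Total counts ran from 34682501 to 36780334 in the LDL samples and from 37189698 to 44883561 in the controls, so every LDL library was the shallower. LDL sample 4 stood apart from the other libraries on the first principal component of log2 CPM, at -46.05, against -0.787 to 17.37 for LDL samples 1 to 3 and -1.86 to 10.68 for the controls. Of the markers fixed for ovarian carcinoma epithelium, PAX8 averaged 102.5 FPKM in LDL and 96.6 FPKM in control samples and the keratin gene KRT8 was also abundant, whereas WT1 had 0 to 10 counts in LDL and 0 to 14 counts in control samples and MUC16 had 8 to 25 counts in LDL and 24 to 45 counts in control samples. Adipocytes and hepatocytes are the cell types best known for PPAR activity. The adipocyte genes ADIPOQ, CIDEC and CIDEA and the hepatocyte genes APOB, TTR and APOC3 had a count of 0 in all 8 libraries. Summed over all 6 listed genes, the adipocyte markers came to 1.81 to 3.54 CPM in LDL and 2.45 to 3.55 CPM in control samples. The 6 hepatocyte genes came to 41.5 to 69.9 CPM in LDL and 49.6 to 60.8 CPM in control samples, nearly all of it from SERPINA1, which averaged 26.6 FPKM in LDL and 27.2 FPKM in control samples.

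The core of a PPAR binding element is the hexamer AGGTCA, and the full element is a direct repeat of it: AGGTCA, any base N, then AGGTCA again. The 250 bases before each annotated start were searched on both strands, using RefSeq windows of GRCh38.p14, which gave 16 windows for the 9 genes. None held the full repeat, which was present in 0.0171% of all 35116 windows. With a match so rare, its absence from 16 windows says nothing about PPAR binding at these genes. Inexact repeats and sites outside the windows were not searched. The hexamer alone was present in 12.1% of all windows, and among the 9 genes in windows of PPARG only. They are shown because they are the matches found, with the hexamer in capitals and each on the plus strand. The first pair lies 217 and 184 bases before the PPARG start at 12287368, at chr3:12287139-12287168 and chr3:12287172-12287201. The other lies 14 bases before the later start at 12289060 and 24 bases before the start at 12289070. It is shown for the latter start, at chr3:12289034-12289063.
PPARG upstream match 1: cccactttggacAGGTCAcgatggacagcg
PPARG upstream match 2: caggaaaagaaaAGGTCActgtctacccaa
PPARG later start: ggcttttatataAGGTCAgtggtaggtaag

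ANGPTL4, the gene with the largest difference among the 9, is shown with the whole stretch before its RefSeq start, chr19:8363905-8364154 on the plus strand. It holds none of the hexamers. Capitals mark TATAAA, searched on the strand of the gene and found in 6.80% of all windows, and ACGTG, the core that hypoxia-inducible factors bind, searched on both strands, found here as its complement and present in 18.5% of all windows. The search of TATAAA and ACGTG over the other windows of the 9 genes found ACGTG for ACADVL and PPARG and TATAAA for no further gene. A match in these windows is a description and not a shown binding site.
ANGPTL4: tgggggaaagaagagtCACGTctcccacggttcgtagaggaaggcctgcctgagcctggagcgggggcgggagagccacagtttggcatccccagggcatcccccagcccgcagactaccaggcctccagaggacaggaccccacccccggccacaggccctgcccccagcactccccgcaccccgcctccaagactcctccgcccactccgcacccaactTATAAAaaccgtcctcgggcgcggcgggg

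Levels were compared between genes as FPKM, which the authors had corrected for gene length and sequencing depth. The oxidation enzymes were the most abundant: ACADVL averaged 138.7 ± 4.70 FPKM in LDL and 129.8 ± 5.21 FPKM in control samples, and HADHA 84.7 ± 4.75 FPKM in LDL and 85.0 ± 2.13 FPKM in control samples (SD, n = 4 each). ANGPTL4 came next, at 28.5 ± 5.41 FPKM in LDL and 20.4 ± 2.62 FPKM in control samples. In LDL samples its range lay wholly above that of CPT1A, the fourth gene, whereas in the controls the ranges of both genes overlapped. CPT1A stood at 18.8 ± 1.10 FPKM in LDL and 19.0 ± 0.923 FPKM in control samples.

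PPARG, PPARD and CPT2 formed a middle group. PPARD averaged 9.63 ± 0.376 FPKM in LDL and 10.14 ± 0.337 FPKM in control samples, PPARG 9.80 ± 2.85 FPKM in LDL and 8.96 ± 0.923 FPKM in control samples, and CPT2 8.16 ± 0.411 FPKM in LDL and 8.90 ± 0.330 FPKM in control samples (SD, n = 4 each). The order of PPARG and PPARD was not fixed, since their ranges overlapped in both groups, and in both groups the range of PPARG also overlapped that of CPT2. PPARA and PDK4 were the lowest, with 0.992 ± 0.238 and 0.785 ± 0.200 FPKM in LDL samples and 1.09 ± 0.0764 and 0.767 ± 0.135 FPKM in controls. PPARA therefore made up 3.08% to 6.52% of the summed FPKM of the 3 receptors in LDL samples and 4.94% to 5.91% in controls. This share depends on the gene lengths behind the FPKM, since the gene models were not given. In CPM, which does not correct for length, PPARA and PPARG lay closer, at 10.2 and 18.7 in LDL samples and 11.2 and 17.1 in controls.

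**Figure D1:**
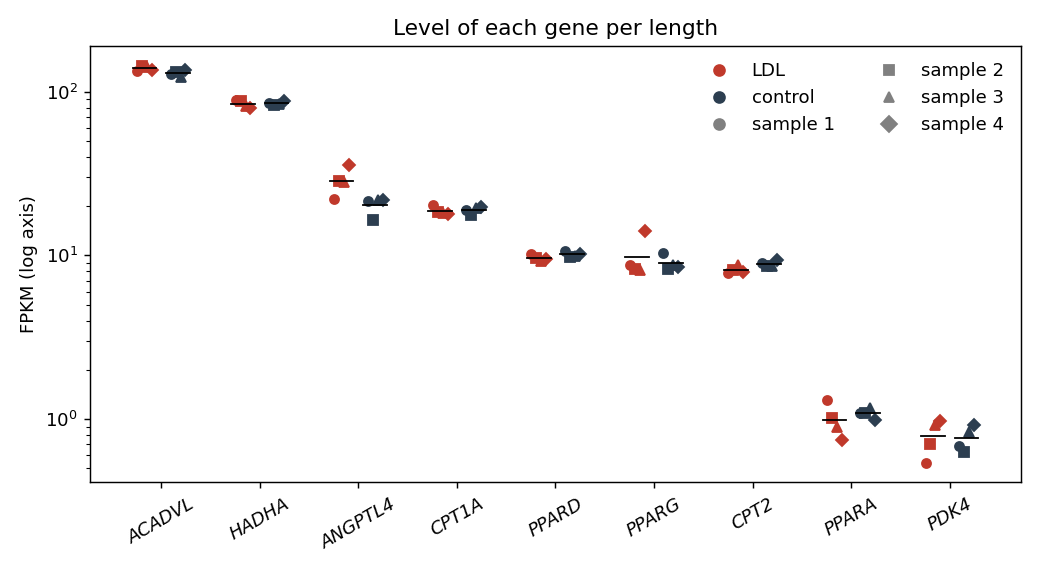
FPKM of each of the 9 genes on a log axis, with LDL samples in red left of control samples in dark blue, 1 symbol per sample number and a line at each group mean. ACADVL and HADHA lie highest and PPARA and PDK4 lowest in both groups, and PPARG in LDL sample 4 stands above the other PPARG values.

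None of the 9 genes differed between LDL and control samples at a Benjamini-Hochberg adjusted p under 0.05 in edgeR's quasi-likelihood test over all 15432 features. Over all features 0.0648% were called, 10 in number, with 0.0259% higher and 0.0389% lower in LDL samples. Of the 9 genes, 4 had a log2 fold change above 0 and 5 below, with a median of -0.02, and over all features the median was 0.01. ANGPTL4 and ACADVL, both higher in LDL samples, had an unadjusted p under 0.05, where 5.59% of all features did, 2.88% higher and 2.72% lower. In no gene of the 9 were the groups free of overlap, where 3.45% of all features were, 1.74% higher and 1.71% lower. In these bulk samples fewer cells making a transcript and less of it per cell cannot be told apart. Levels by sample are in CPM, counts scaled to library size with TMM normalization factors.

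**Figure D2:**
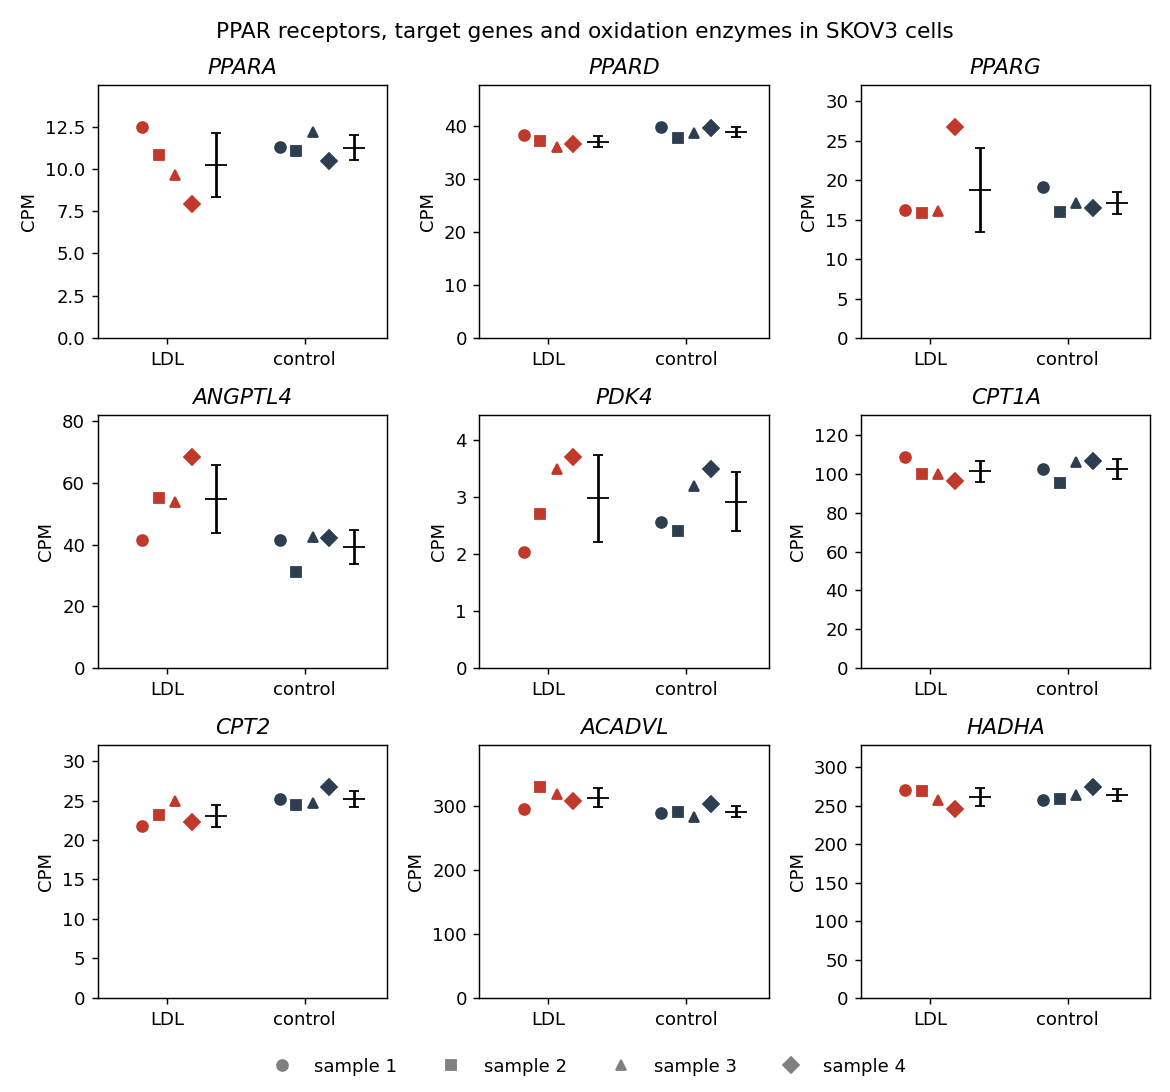
CPM of each gene in the 4 LDL samples (red) and the 4 control samples (dark blue), 1 symbol per sample number, with the group mean and SD beside the points and every axis starting at 0. ANGPTL4 is highest in LDL sample 4 at 68.4 CPM and PPARG stands at 26.7 CPM in that sample, while the oxidation enzymes lie close together in both groups.

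Among the receptors, PPARD, the form expressed in most tissues, varied least. It had 38.4, 37.3, 36.0 and 36.7 CPM in LDL samples 1 to 4 and 39.8, 37.8, 38.7 and 39.6 CPM in control samples 1 to 4. The LDL values lay at the low end and overlapped the control values through LDL sample 1. The fold change was 0.951 with a 95% interval of 0.872 to 1.04 (edgeR adjusted p = 0.916).

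PPARA, the receptor that drives fatty acid oxidation in liver, had 12.5, 10.8, 9.63 and 7.95 CPM in LDL samples 1 to 4 and 11.3, 11.0, 12.2 and 10.4 CPM in the controls. LDL sample 1 was the highest of all 8 and LDL sample 4 the lowest, so the LDL samples enclosed the whole control range. The fold change was 0.909 (interval 0.753 to 1.10, edgeR adjusted p = 0.930). Leaving out LDL sample 4 took the log2 fold change to -0.04 and leaving out LDL sample 1 took it to -0.25, against -0.14 with all samples, and it was called in neither fit.

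PPARG, the receptor that directs fat cell formation, had 16.3, 15.8, 16.1 and 26.7 CPM in LDL samples 1 to 4 and 19.1, 15.9, 17.1 and 16.5 CPM in the controls. The first 3 LDL samples lay at the low end of the controls or just under it, and LDL sample 4 was far above all other libraries. The fold change over all samples was 1.09 (interval 0.856 to 1.39, edgeR adjusted p = 0.950), a direction that rested on LDL sample 4: without it the log2 fold change was -0.09 (edgeR adjusted p = 0.980). In that sample PPARG made up 57.9% of the summed receptor FPKM, against 43.1% to 44.7% in LDL samples 1 to 3 and 43.1% to 46.9% in the controls. The same library also had the lowest summed level of 6 fibroblast genes, at 172.2 CPM. LDL samples 1 to 3 had 404.4 to 444.3 CPM and the controls 385.6 to 405.5 CPM. Most of the sum was COL1A1, at 146.0 CPM in LDL sample 4, and COL1A2 and COL3A1 were also lowest there. LUM, DCN and PDGFRA were not. LUM had 4.74 CPM in LDL sample 4 and 3.81, 3.86 and 4.41 CPM in LDL samples 1 to 3. All 6 genes had counts above 0 in every library, and the part of these markers in the PPARG value was not tested. The counts are per gene, so transcripts from the several PPARG starts cannot be told apart.

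Of the target genes, ANGPTL4 showed the largest difference. It encodes angiopoietin-like 4, a secreted inhibitor of lipoprotein lipase that fatty acids induce through PPARs in many cell types, and lies on chromosome 19 from 8363289 to 8374373 (GRCh38, plus strand). Its counts were 1539, 1901, 1872 and 2384 in LDL samples 1 to 4 and 1708, 1170, 1642 and 1885 in the controls. Scaled to library size these were 41.6, 55.2, 54.0 and 68.4 CPM in LDL samples and 41.4, 31.2, 42.4 and 42.3 CPM in controls. LDL samples 2, 3 and 4 lay above all controls, LDL sample 1 lay among them, and control sample 2 was the lowest of the 8.

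The means for ANGPTL4 were 54.8 ± 11.0 CPM in LDL and 39.3 ± 5.43 CPM in control samples (SD, n = 4 each), a fold change of 1.39 with an interval of 1.08 to 1.80. Its log2 fold change of 0.48 (SE 0.160) was larger in size than that of 94.7% of all features tested. The unadjusted p was 0.0175 in edgeR and ranked 327, and the adjusted p of 0.822 missed the threshold. DESeq2 gave a log2 fold change of 0.48 with an adjusted p of 0.0493, just past it, in a fit that called 50 of 15432 features. The value lay above 0 with any sample left out, at a log2 fold change of 0.35 without LDL sample 4, 0.38 without control sample 2 and 0.59 without LDL sample 1, and none of these fits called it (edgeR adjusted p = 0.853, 0.964 and 0.0784).

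PDK4, a kinase that shuts off pyruvate dehydrogenase and so spares glucose when fat is burned, was scarce. It had 2.03, 2.70, 3.49 and 3.70 CPM in LDL samples 1 to 4 and 2.57, 2.40, 3.20 and 3.50 CPM in the controls. The LDL samples held both the lowest and the highest value of the 8. The fold change was 1.02 with a wide interval, 0.744 to 1.40 (edgeR adjusted p = 0.993), and its direction turned without LDL sample 3 or 4 or control sample 1 or 2, at log2 fold changes between -0.09 and -0.03.

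The carnitine shuttle genes did not pass. CPT1A, the outer membrane transferase that sets the rate of entry of fatty acids into mitochondria, had 108.8, 100.2, 100.2 and 96.4 CPM in LDL samples and 102.4, 95.2, 106.2 and 106.7 CPM in controls. The groups overlapped almost wholly, and the fold change was 0.988 (interval 0.910 to 1.07, edgeR adjusted p = 0.980). CPT2, the inner membrane transferase, had 21.8, 23.2, 24.9 and 22.3 CPM in LDL samples and 25.1, 24.4, 24.7 and 26.7 CPM in controls. All LDL samples except LDL sample 3 lay below all controls. The fold change was 0.913 (interval 0.819 to 1.02, edgeR adjusted p = 0.884). CPT2 overlaps C1orf123 and ANGPTL4 overlaps RAB11B-AS1, each on the opposite strand.

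The beta-oxidation enzymes were measured most precisely. ACADVL, the very long-chain acyl-CoA dehydrogenase that opens each round on long fatty acids, had 295.3, 330.5, 320.1 and 309.2 CPM in LDL samples and 289.9, 290.9, 283.4 and 303.6 CPM in controls. LDL samples 2, 3 and 4 lay above all controls and LDL sample 1 overlapped control sample 4. The means were 313.8 ± 15.1 CPM in LDL and 292.0 ± 8.45 CPM in control samples (SD, n = 4 each), a fold change of 1.07 (interval 1.00 to 1.15, edgeR unadjusted p = 0.0420 and adjusted p = 0.878). ACADVL likewise overlaps DLG4 on the opposite strand, and the strand setting of the counting is not given in the sources used here.

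HADHA, the alpha subunit of the trifunctional protein that carries out the later steps, had 270.9, 268.7, 257.7 and 245.3 CPM in LDL samples and 257.8, 259.2, 264.1 and 274.2 CPM in controls. LDL samples held the lowest value and control sample 4 the highest, with the others mixed. The fold change was 0.988 (interval 0.922 to 1.06, edgeR adjusted p = 0.977). CPT1A and HADHA had log2 fold changes just above 0 without LDL sample 4 (0.0062 and 0.0105) and without control sample 4 (0.00027 and 1.28e-05).

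HADHB encodes the beta subunit of the same protein. Its RefSeq start lies 307 bases from that of HADHA on chromosome 2, and both genes are read outward from the stretch between them. In the GENCODE models HADHA and HADHB overlap on opposite strands from 26243170 to 26244726, so without a stated strand setting reads from that stretch cannot be told apart, also in the ratio and the correlation of the pair. HADHB averaged 114.5 ± 6.13 CPM in LDL and 113.9 ± 3.84 CPM in control samples (SD, n = 4 each; fold change 1.01, interval 0.930 to 1.09, edgeR adjusted p = 0.993). The HADHA to HADHB ratio of CPM was 2.32, 2.27, 2.19 and 2.33 in LDL samples 1 to 4 and 2.20, 2.39, 2.31 and 2.38 in the controls, so the ranges overlapped. Across the 8 libraries the log2 CPM of the pair had a Pearson r of 0.66, which ranked 1168 of 12550 candidate genes for likeness to HADHA.

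**Figure D3:**
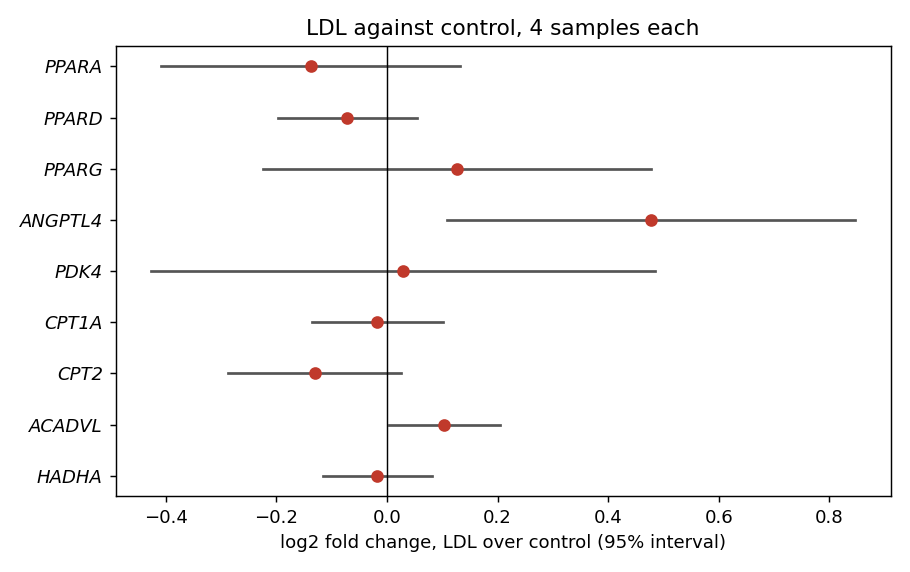
Log2 fold change of LDL over control samples for the 9 genes, with dots for the edgeR estimate and lines for the 95% interval from 4 samples in each group. The interval of ANGPTL4 lies above 0, that of ACADVL starts just above 0, and PPARA, PPARG and PDK4 have wide intervals on both sides of 0.

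The pathways around the 9 genes were read from 14 lists. They named 140 genes, all of which were in the tables and 119 of which were tested. None of the 119 passed over all features. Of them 70 had a log2 fold change above 0 and 49 below, with a median of 0.02. Over all features 52.3% lay above 0. The unadjusted edgeR p was under 0.05 for 13 of the 119, ANGPTL4 and ACADVL among them, 9 higher and 4 lower. These made up 10.9% of those tested, beside 5.59% of all features. The lists were chosen with earlier results of these data known, so these shares are no test of the pathways.

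Partners and coregulators of the receptors did not pass either. Of the list of PPARs and RXRs 5 of 6 genes were tested and none passed. RXRA, the RXR with the smallest p, had 95.3, 88.6, 88.7 and 92.1 CPM in LDL samples and 96.0, 97.0, 100.1 and 97.3 CPM in controls (fold change 0.934, edgeR adjusted p = 0.879). Its LDL samples all lay below its controls, by a small margin, as was so for 1.71% of all features. RXRG had a count of 0 in every library. PPARGC1A, the coactivator that drives mitochondrial gene programmes in muscle and brown fat, had 0 to 3 counts in LDL and 0 to 14 counts in control samples and was not tested.

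None of 12 tested coactivators and corepressors passed, and their median log2 fold change was -0.04. LPIN1, a phosphatidate phosphatase that also works as a PPAR coactivator, had 28.3, 24.9, 25.8 and 27.4 CPM in LDL samples and 22.6, 23.3, 23.5 and 22.2 CPM in controls. The groups did not overlap, with LDL samples higher, as was so for 1.74% of all features. The fold change of 1.16 (interval 1.05 to 1.29) had an unadjusted p of 0.00787 and an adjusted p of 0.706 in edgeR. NRIP1, a corepressor of nuclear receptors in fat and liver, stood at a fold change of 0.891 (edgeR unadjusted p = 0.124). NRIP1 was called lower only in fits without LDL sample 1 (log2 fold change -0.29, edgeR adjusted p = 0.0366) or without both LDL samples 1 and 4 (-0.27, edgeR adjusted p = 0.0419). Those fits called 149 of 15625 and 248 of 15944 features, against 10 of 15432 with all samples.

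Of 25 listed PPAR target genes 17 were tested, and none passed; 10 lay above and 7 below 0, with a median log2 fold change of 0.03. Several classical targets were barely detected: FABP1 and FGF21 were at 0 counts throughout, a result that allows up to 0.0811 to 0.0872 CPM in LDL and 0.0673 to 0.0800 CPM in control libraries from counting error alone, and CYP4A11 had 4 counts in LDL sample 3 and 0 in the others. PLIN2, a lipid droplet coat gene, had 0 to 5 counts in LDL and 0 to 7 counts in control samples. These are the counts under each gene name, and the gene models behind them were not given in the sources used here. ETFDH, which passes electrons from beta-oxidation to ubiquinone, had a fold change of 0.900 (edgeR adjusted p = 0.884).

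Of the 17 genes of mitochondrial beta-oxidation all were tested and none passed. The log2 fold changes ran from -0.15 to 0.16 with a median of 0.03. ETFB, a subunit of the electron transfer flavoprotein, had 60.8, 73.1, 66.0 and 61.1 CPM in LDL samples and 56.4, 58.4, 56.3 and 62.1 CPM in controls. Control sample 4 lay among the LDL values, and the fold change was 1.12 (edgeR unadjusted p = 0.0263 and adjusted p = 0.849). It was called only without both LDL samples 1 and 4 (log2 fold change 0.25, edgeR adjusted p = 0.0483), as was the coactivator gene EP300, lower (-0.27, edgeR adjusted p = 0.0271). That fit called 248 of 15944 features.

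The 8 carnitine shuttle genes, all tested, had a median log2 fold change of -0.01. CRAT, the acetyl transferase of the shuttle, stood at a fold change of 0.912 (edgeR unadjusted p = 0.0416 and adjusted p = 0.878). SLC22A5 of the same list had 16.2, 16.3, 16.2 and 17.2 CPM in LDL samples and 17.8, 17.7, 18.3 and 17.3 CPM in controls. Its groups did not overlap, as in 1.71% of all features with LDL samples lower (fold change 0.927, edgeR adjusted p = 0.899). Among 4 tested long-chain acyl-CoA synthetases, which prime fatty acids for any use, ACSL3 stood at 1.08 (edgeR adjusted p = 0.878) and the median was 0.04. In peroxisomal oxidation, with 13 tested genes and a median of 0.02, the oxidase gene ACOX3 had 15.4, 15.2, 14.2 and 13.1 CPM in LDL samples and 15.2, 18.8, 16.5 and 18.7 CPM in controls (fold change 0.836, edgeR adjusted p = 0.822). Only control sample 1 lay among the LDL values.

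Genes that decide between glucose and fat also did not pass. All 11 genes of pyruvate dehydrogenase and its regulators were tested, with a median log2 fold change of 0.05, and the phosphatase gene PDP1 stood at 1.09 (edgeR adjusted p = 0.884). The list on malonyl-CoA, which blocks CPT1, and on AMP-activated kinase had a median of -0.04 over 10 tested genes, with the kinase subunit gene PRKAB2 at 0.910 (edgeR adjusted p = 0.884). Of the 9 genes around lipoprotein lipase 5 were tested, ANGPTL4 included, and none passed. All 5 had log2 fold changes above 0, as had 52.3% of all features, with a median of 0.44. That median was the value of LIPG, at 1.32 CPM in LDL and 0.969 CPM in control samples, with an interval of -0.29 to 1.17. LMF2, at 171.4 CPM in LDL and 163.3 CPM in control samples, stood at 0.07, and LIPC at 0.03. LPL itself, the target of ANGPTL4, had 5 counts in LDL sample 3 and 0 in all others. LMF1, a maturation factor of lipases, had a fold change of 1.37 at a level near 2 CPM (2.31 ± 0.506 in LDL and 1.69 ± 0.356 in control samples, SD, n = 4 each; edgeR adjusted p = 0.882).

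No uptake or ketone gene passed. FABP5, the fatty acid binding protein known to deliver ligands to PPARD, had 78.3, 94.8, 93.1 and 115.3 CPM in LDL samples and 86.0, 82.5, 85.3 and 81.9 CPM in controls (fold change 1.14, edgeR adjusted p = 0.879). LDL sample 1 was the lowest of the 8 and LDL sample 4 the highest. Over the 8 uptake genes tested the log2 fold changes had a median of 0.04. BDH1, which interconverts ketone bodies, had a fold change of 1.32 (edgeR unadjusted p = 0.0465 and adjusted p = 0.878) at 4.11 CPM in LDL and 3.10 CPM in control samples, and its list a median of 0.09 over 5 genes.

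ANGPTL4 is also known as a target of hypoxia-inducible factors and of the glucocorticoid receptor, and lists for both were read beside it. Of 12 tested hypoxia genes none passed, 7 lay above and 5 below 0, and the median log2 fold change was 0.02. BNIP3, a mitophagy receptor gene, had 44.7, 40.6, 39.3 and 46.9 CPM in LDL samples and 38.1, 38.9, 35.4 and 32.7 CPM in controls, with no overlap (fold change 1.18, edgeR unadjusted p = 0.00540 and adjusted p = 0.662). Groups without overlap and higher in LDL samples were seen for 1.74% of all features. VEGFA, at a fold change of 0.972, and PDK1, at 0.996, were among the 5 below 0 on the log2 scale. Of 7 tested glucocorticoid targets none passed and the median was 0.01, with DUSP1 at 1.09 (edgeR adjusted p = 0.879) and FKBP5 at 0.999. The part of either pathway in the ANGPTL4 values was not tested.

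**Figure D4:**
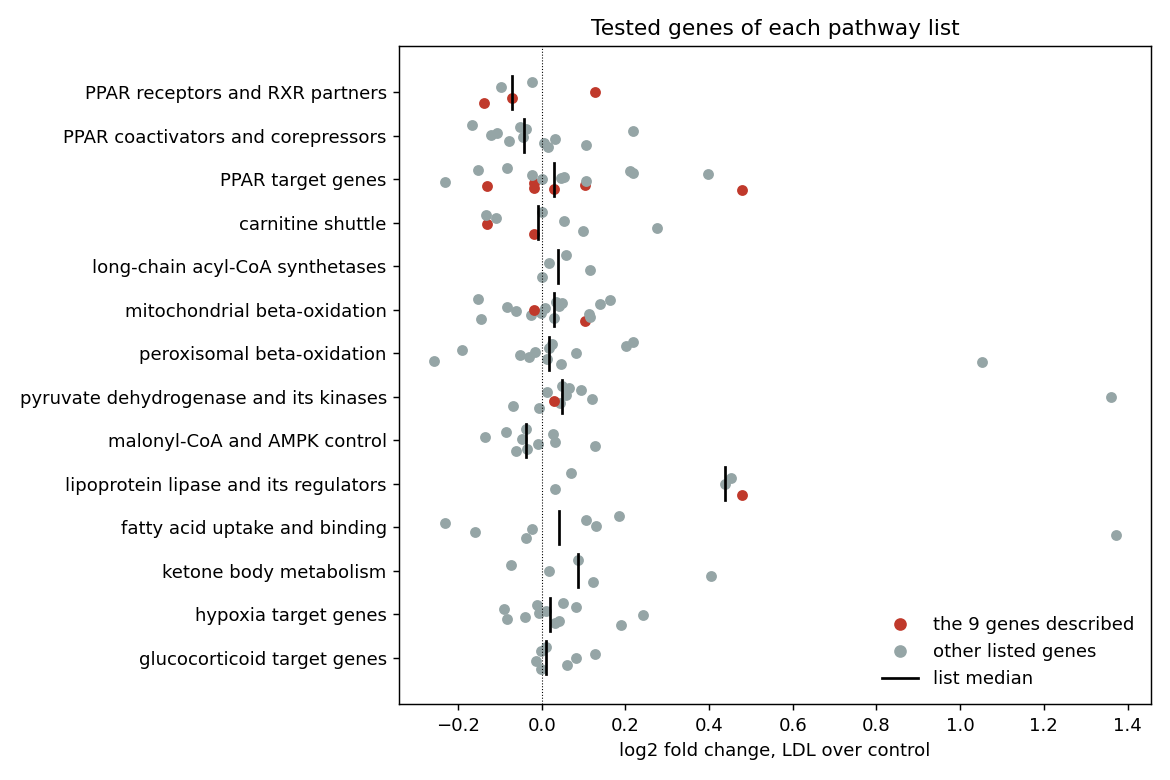
Log2 fold change of LDL over control samples for every tested gene of the 14 lists, with the 9 genes described in red, other genes in grey and a black bar at each list median. Most genes lie close to 0; the 3 grey points above 1 are ACOX2, PDP2 and SLC27A2, none of which passed.

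The gene most like each of the 9 in its log2 CPM over the 8 samples was taken from 12550 candidates as a description, and is given for all but CPT2. ANGPTL4 ran closest to ACOT13, a thioesterase gene, with a Pearson r of 0.995, and PPARA to JAG1 at 0.979. PPARG was closest to ZKSCAN2 at 0.969, which fell to 0.90 over the 7 samples without LDL sample 4. For PPARD it was L1CAM (0.948), for PDK4 TIGD5 (0.976), for CPT1A KLHDC3 (0.969), for ACADVL DHRS4L2 (0.973) and for HADHA QSOX1 (0.972). Each is the highest of many values over few libraries, and none of these neighbours was called between the groups.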

How the data were processed

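Per the labels' protocols, libraries were prepared with TruSeq Stranded mRNA chemistry. Tools named in the notes on processing by the submitters are HISAT2, featureCounts and DESeq2 1.26.0, and the build is GRCh38. The aligner's role, gene models and strand setting were not given in the sources used here. Gene counts were deposited as whole numbers and handled as estimated counts, since 55.2% of values from 1 to 20 were even; they needed no rounding. The authors also deposited FPKM, which corrects for gene length and depth; it served for levels between genes and for alternatives.

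Groups came from sample titles. All 8 libraries were kept as separate samples, since chi-square over degrees of freedom within groups was 6.73 to 28.9. Genes were tested with edgeR 4.0.16 in R 4.3.3 (quasi-likelihood, TMM, filterByExpr, robust, group only), adjusted by Benjamini-Hochberg over all 15432 features at 0.05; intervals are 95% intervals from the standard error of that fit. The common biological coefficient of variation was 12.6%. The limit for a count of 0 is 3 counts of a library and covers counting error only.

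Members and gene lists were chosen with earlier results of these data known. Named genes are the 9 members, the called or else smallest-p other gene of each list, the gene with at least 1 CPM most like each member in log2 CPM (prior count 2), and HADHB; the gene most like CPT2 is not reported here. Other genes, such as NRIP1, EP300, SLC22A5, PLIN2, LPL, PPARGC1A, RXRG, VEGFA, PDK1, FKBP5, ACOX2, PDP2 and SLC27A2, were chosen after their values were seen. Alternatives were DESeq2 1.42.0, DESeq2 size factors in edgeR, limma 3.58.1 voom, no filter, a replicate block, each sample left out in turn, and limma on log2(FPKM + 1) or log2(FPKM + 0.1) with a mean of at least 0.5 FPKM or no minimum. Leaving out both LDL samples 1 and 4 was added after seeing the data. Genome positions are from GENCODE release 29 and promoter windows from RefSeq on GRCh38.p14.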

Additional observations from a re-analysis of the deposited data

Results flagged for a closer look

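Of the 18 sets of 4 values (9 genes in LDL and control samples), 2 held a sample whose gap to its nearest neighbour exceeded Dixon's 95% critical share of its group's range, where chance gives about 1 in 20. PPARG in LDL sample 4, at 26.7 CPM, had a gap of 0.962 of the range. ANGPTL4 in control sample 2, at 31.2 CPM, had a gap of 0.909 of the range.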

How the results depend on the processing

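Over all features 10 genes were called. The count was 50 with DESeq2, 2 with the replicate block, 5 on log2(FPKM + 0.1), 2 on log2(FPKM + 1) with no minimum, 248 without both LDL samples 1 and 4, and 2 (without control sample 3) to 149 (without LDL sample 1) with single samples left out. Of the 9 genes none was called except ANGPTL4 by DESeq2, 1 of 9, and the median log2 fold change of the 9 ran from -0.05 to 0.00027 with single samples left out. Of the list genes 1 was called by DESeq2 (ANGPTL4), where 50 of 15432 features were called. Without both LDL samples 1 and 4 it was 3, where 248 of 15944 features were called. With single samples left out it was 0 to 1, the 1 without LDL sample 1, where 149 of 15625 features were called.

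Directions turned for values near 0. PPARG had a log2 fold change of -0.11 without both LDL samples 1 and 4, and -0.0941 to 0.196 with single samples left out. PDK4 had -0.0065 with voom and -0.0932 to 0.175 with single samples left out, CPT1A -0.0528 to 0.0062 and HADHA -0.0365 to 0.0105. ZKSCAN2 had -0.0013 with voom, -0.11 without both LDL samples 1 and 4 and -0.111 to 0.0565 with single samples left out, and TIGD5 had -0.0486 to 0.126. QSOX1 had -0.00038 with DESeq2 size factors in edgeR, -0.0066 without the filter, -0.00039 with DESeq2 and -0.0290 to 0.0399 with single samples left out. HADHB had -0.0013 without the filter and -0.0152 to 0.0453 with single samples left out. The cause was not tested.

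The labels do not say whether the replicate numbers mark a pairing. Deviations of same-numbered samples from their group means had correlations of -0.10 to 0.06, and 2 of 4 numbers matched best with themselves. So few values cannot decide whether the samples were paired. With the replicate block ANGPTL4 had a log2 fold change of 0.47 (edgeR adjusted p = 0.808). The intervals of PDK4 and PPARG limit what differences these samples could show.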

Other observations

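PDP2, a pyruvate dehydrogenase phosphatase gene, had 635, 453, 20 and 493 counts in LDL samples 1 to 4 and 25, 39, 586 and 39 counts in control samples 1 to 4. LDL sample 3 and control sample 3 each stood against the rest of their group, and the fitted fold change of 2.57 did not pass (edgeR unadjusted p = 0.353). The deposited FPKM of PDP2 varied far less than its counts, at 2.39, 1.87, 0.951 and 2.04 in LDL samples and 1.06, 1.82, 2.15 and 1.46 in controls, with means of 1.81 FPKM in LDL and 1.62 FPKM in control samples. LDL sample 2 and control sample 2 had nearly the same FPKM with 453 and 39 counts. PDP2 was chosen after its values were seen.

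ACOX2, a peroxisomal oxidase gene for branched chains and bile acid precursors, had 41, 29, 40 and 58 counts in LDL samples and 11, 13, 30 and 40 counts in controls (fold change 2.07, edgeR unadjusted p = 0.0198), with overlapping groups.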
